A study of Mus musculus with 4 samples.

Results

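The genes followed belong to the tumour necrosis factor (TNF) receptor superfamily and were measured in CD4+Foxp3+ regulatory T cells (Tregs). They were Tnfrsf4, Tnfrsf9, Tnfrsf18, Tnfrsf25, Cd27, Tnfrsf1b, Tnfrsf1a and Fas. They were chosen by name, and 8 of 8 were present among the 28032 features with an exon length. The 4 libraries came from C57BL/6 mice aged 8 weeks, with 1 library for each combination of genotype and tissue. Wild-type (WT) replicate 1 and Csnk2b-deficient replicate 1 were spleen Tregs, and both libraries numbered 2 were Tregs from tracheal lymph nodes, the nodes that drain the airways. Csnk2b encodes the regulatory (beta) subunit of the kinase CK2, and its genotype is labelled Csnk2b-/-. The allele or Cre driver behind the deficiency, and whether cells of several animals were pooled, is unstated in the labels. No library repeats a genotype within a tissue.

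TNF receptors are type I membrane proteins that bind trimeric ligands of the TNF family through cysteine-rich repeats. One class has no death domain and recruits TRAF adaptors, which lead to NF-κB. OX40 (Tnfrsf4), GITR (Tnfrsf18), 4-1BB (Tnfrsf9), CD27 and TNFR2 (Tnfrsf1b) belong to it and act as costimulatory receptors on T cells. The other class carries a death domain, which couples to TRADD or FADD, and includes TNFR1 (Tnfrsf1a), DR3 (Tnfrsf25) and Fas. OX40, GITR, 4-1BB and TNFR2 are typical surface receptors of Tregs, and signals through OX40, GITR, TNFR2 and DR3 can drive Treg expansion in mice. CK2 is known to phosphorylate the NF-κB subunit p65 and the inhibitor IκBα.

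Of the receptor genes, 5 lie on chromosome 4, Cd27 and Tnfrsf1a on chromosome 6 and Fas on chromosome 19. In mm9, Tnfrsf4 (155387952 to 155390721) and Tnfrsf18 (155400273 to 155403004) are direct neighbours, 9551 bases apart with 0 annotated features between them. Cd27 (125182640 to 125187028) and Tnfrsf1a (125299380 to 125312502) are 112351 bases apart, with Tuba3a, Ltbr and Scnn1a in the gap. Promoter windows of 300 bases, from 250 before to 50 after a start site, were read from RefSeq on GRCm38.p6, whose coordinates cannot be set against those of mm9. All 8 genes matched, with 10 windows. The 4 windows shown are those for the neighbours Tnfrsf4 and Tnfrsf18 and for Tnfrsf9, which were all higher in lymph node Tregs, and that for Tnfrsf1b, which was lower there. Capitals mark every match to the motifs searched on both strands, which were the NF-κB kappaB consensus, the AP-1 motif TGANTCA, the forkhead motif TGTTTAC, the GC box GGGCGG, the RUNX motif TGTGGT and the E-box CACGTG.
Tnfrsf4, chr4:156013445-156013744, plus strand: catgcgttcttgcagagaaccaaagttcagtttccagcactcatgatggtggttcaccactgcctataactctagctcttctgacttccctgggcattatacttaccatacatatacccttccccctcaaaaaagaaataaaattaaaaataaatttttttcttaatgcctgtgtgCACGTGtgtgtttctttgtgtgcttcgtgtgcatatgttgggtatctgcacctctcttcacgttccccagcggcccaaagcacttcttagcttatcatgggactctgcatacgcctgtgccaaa
Tnfrsf18, chr4:156026072-156026371, plus strand: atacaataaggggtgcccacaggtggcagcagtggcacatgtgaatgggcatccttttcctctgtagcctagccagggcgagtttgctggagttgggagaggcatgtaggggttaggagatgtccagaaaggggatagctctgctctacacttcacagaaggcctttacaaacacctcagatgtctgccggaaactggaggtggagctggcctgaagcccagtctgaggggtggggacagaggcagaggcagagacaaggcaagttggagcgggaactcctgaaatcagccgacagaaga
Tnfrsf9, chr4:150927749-150928048, plus strand, the second of 2 windows: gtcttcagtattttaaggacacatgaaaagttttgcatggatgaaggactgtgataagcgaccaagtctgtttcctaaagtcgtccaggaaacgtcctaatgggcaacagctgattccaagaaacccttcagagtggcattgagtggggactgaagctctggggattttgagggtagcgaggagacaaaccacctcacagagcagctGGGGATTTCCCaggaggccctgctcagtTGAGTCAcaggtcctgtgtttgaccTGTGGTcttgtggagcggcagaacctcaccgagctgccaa
Tnfrsf1b, chr4:145246821-145247120, minus strand: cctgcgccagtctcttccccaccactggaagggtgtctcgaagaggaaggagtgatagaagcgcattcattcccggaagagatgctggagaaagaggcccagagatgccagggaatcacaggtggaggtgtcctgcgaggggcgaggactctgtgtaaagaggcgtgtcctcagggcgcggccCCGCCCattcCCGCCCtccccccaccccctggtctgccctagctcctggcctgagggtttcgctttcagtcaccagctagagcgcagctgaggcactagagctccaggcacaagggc
The Tnfrsf9 window holds the only kappaB match among the 8 genes. Its first base lies 43 bases before the start, and a second match begins at the next base. Such a match was found in 4.51% of all 32851 promoter windows. The same Tnfrsf9 window has the AP-1 motif, which was found in 7.81% of all windows and also occurs in the Fas window. The Tnfrsf4 window has an E-box (7.15% of all windows), which also occurs in the Fas window. The Tnfrsf18 window holds none of the motifs searched, and the Tnfrsf1b window has 2 GC boxes (35.7% of all windows). A GC box also occurs in windows of Fas, Tnfrsf25 and Tnfrsf9. The RUNX motif (16.8% of all windows) was found for Tnfrsf9 and Tnfrsf25, and the forkhead motif (3.65%) for 0 of the 8 genes. These matches describe letters in the windows and not sites in use.

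Libraries held 4737814 to 6750695 exon reads and reads in 12157 to 15515 genes, with the fewest genes in WT lymph node Tregs. Treg and T cell markers (Foxp3, Il2ra, Ctla4, Ikzf2, Ikzf4, Cd3 chains and Cd4) had reads for 9 of 9 genes in every library. Csnk2b was lower in Csnk2b-deficient Tregs by 1.54 ± 0.26 on the log2 scale and missed the threshold (adjusted p = 0.0658, edgeR). DESeq2 (0.00534), limma-voom (0.00380) and edgeR with no filter on low reads (4.99e-05) called it. The other alternatives that kept all 4 libraries did not call Csnk2b (edgeR adjusted p of 0.0847 and above). Foxp3, the gene of the transcription factor that defines the sorted cells, fell by 1.66 ± 0.25 (adjusted p = 0.0375), but had -0.71 on uniquely placed reads, which was not called. DESeq2, limma-voom and edgeR with no filter also called Foxp3, and the other alternatives run did not (adjusted p = 0.0591 to 1.00). Summed B cell markers were 28.3 to 32.2 CPM (exon reads scaled to library size) for the spleen and 117 to 168 CPM for the lymph node, there mostly from Cd79b, with Pax5 at 0 reads in every library. Summed myeloid markers were 41.5 to 46.8 CPM in the spleen, 182 CPM in WT lymph node Tregs and 421 CPM in Csnk2b-deficient lymph node Tregs, where Lyz2 alone made up 283 CPM. S100a8 and S100a9 were at 0 reads in every library, and Cd14 had 0.22 CPM in Csnk2b-deficient lymph node Tregs and 0 elsewhere. Markers of CD8 T and NK cells summed to 19.4 to 55.0 CPM with Ncr1 at 0, and stromal and epithelial markers to 134 to 261 CPM with Krt8 at 0, mostly from Pecam1. The part of such cells in the results was not tested.

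The order of the receptors was compared as CPM per kilobase of exon, since longer transcripts give more reads. Tnfrsf4 had the highest level in every library, with 202 (WT) and 215 (Csnk2b-deficient) among spleen Tregs and 1981 and 2233 among lymph node Tregs. Tnfrsf18 was second in every library, with 129 and 125 for spleen and 809 and 837 for lymph node. In the spleen, Cd27 (124 in WT and 79.9 in Csnk2b-deficient Tregs) and Tnfrsf1b (120 and 118) changed places between the genotypes, so their order is not settled, and Tnfrsf18 was close to both in WT. In the lymph node the order below Tnfrsf18 was Cd27, Tnfrsf9, Fas, Tnfrsf1b, Tnfrsf25 and Tnfrsf1a in both genotypes. The lowest receptor was Tnfrsf1a, with 12.0 and 7.86 for spleen and 3.10 and 3.12 for lymph node. Of the summed level of the 8 receptors, Tnfrsf4 made up 27.6% and 31.5% for spleen and 55.0% and 56.4% for lymph node. The sum itself was 731 and 682 CPM per kilobase for spleen and 3603 and 3957 for lymph node.

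**Figure D1:**
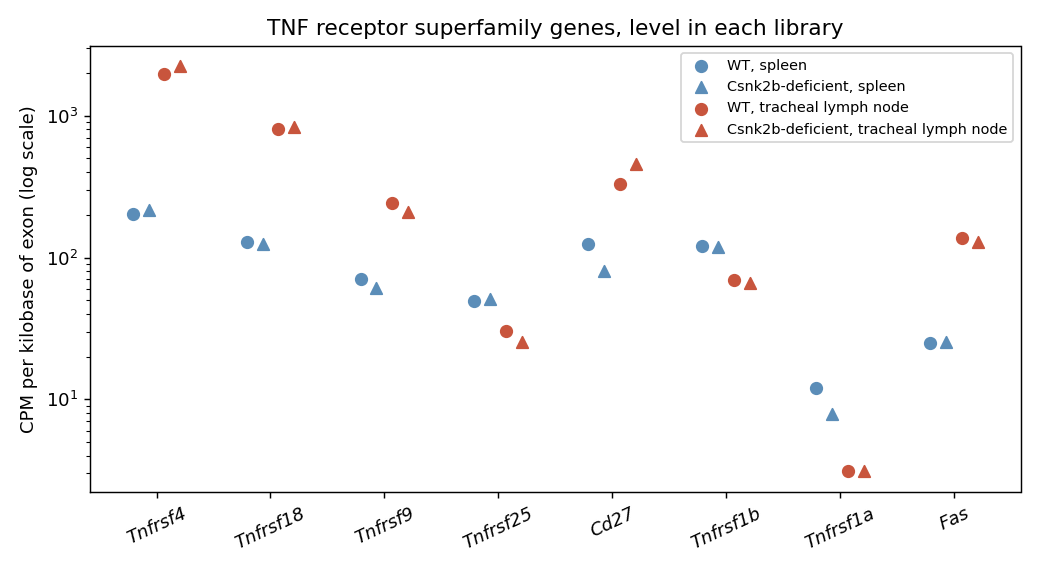
Level of each receptor gene in each of the 4 libraries, as CPM per kilobase of exon on a log axis; circles are WT, triangles Csnk2b-deficient, blue spleen and red tracheal lymph node, with 1 library per symbol. Symbols of one colour lie close together, and the blue and red symbols do not overlap for 8 of 8 genes, as for 76.6% of all genes tested.

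No receptor gene had a called difference between Csnk2b-deficient and WT Tregs. Of the 8, 0 passed the test of genotype in edgeR, with 0 at an unadjusted p below 0.05, while 0.144% of the 11113 genes tested were called, 0.126% higher and 0.018% lower in Csnk2b-deficient Tregs. DESeq2 (Wald test) also called 0 of the 8, against 0.486% of all genes (0.342% higher and 0.144% lower). For limma-voom it was 0 of the 8, against 0.576% (0.378% higher and 0.198% lower). Again 0 receptors were at an unadjusted p below 0.05, against 483 (DESeq2) and 754 (limma-voom) of all genes tested. The median log2 fold change of the receptors was -0.062, compared with 0.0087 over all genes tested. The only residual in this fit is the disagreement of the genotype ratios of spleen and lymph node, pooled with that of other genes, so the p-values do not come from repeated libraries. On total exon reads, the ratio went in opposite directions in the 2 tissues for 5 receptors, of which Tnfrsf18 had 0.049 for spleen and 0.021 for lymph node (log2) on uniquely placed reads, and over all genes tested 56.7% had the same direction. With 1 library per genotype and tissue, the ratio within a tissue has no replicate check, and the intervals given for it cover counting error only. In bulk samples, fewer cells that express a gene and less RNA per cell cannot be told apart.

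Among the costimulatory receptors, Tnfrsf4, which encodes OX40, had 2175 exon reads (276 CPM) in the WT spleen library and 1693 (293 CPM) in the Csnk2b-deficient one. Among lymph node Tregs, WT had 11065 reads (2704 CPM) and Csnk2b-deficient 13903 (3048 CPM). The Csnk2b-deficient library was slightly higher in both tissues, by a ratio of 1.06 (95% exact binomial interval 0.996 to 1.13) for spleen and 1.13 (1.10 to 1.16) for lymph node. Over both tissues the joint log2 fold change came to 0.13 ± 0.16 (SE, with n = 2 per genotype, 1 library of each tissue; edgeR adjusted p = 0.922), with a 95% interval of -0.22 to 0.48. Tnfrsf18, the gene of GITR, had 196 and 190 CPM for spleen and 1233 and 1275 CPM for lymph node, WT first. Its libraries of one tissue lay within counting error of each other, and the joint log2 fold change of 3.7e-06 ± 0.17 had a 95% interval of -0.38 to 0.38 (adjusted p = 1.00).

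Tnfrsf9, the gene of the activation-induced receptor 4-1BB, had 1508 reads (191 CPM) in the WT spleen library and 956 (165 CPM) in the Csnk2b-deficient one, and 2713 (663 CPM) and 2591 (568 CPM) for lymph node. Csnk2b-deficient Tregs were lower in both tissues, by ratios of 0.865 (0.796 to 0.938) and 0.857 (0.811 to 0.904). Over both tissues the log2 fold change was -0.22 ± 0.18 (95% interval -0.62 to 0.19, edgeR adjusted p = 0.895), so the shared direction was within the error of the fit. Tnfrsf1b, which encodes TNFR2, had 459 and 452 CPM for spleen and 265 and 251 CPM for lymph node, WT first. Both ratios, 0.985 (0.936 to 1.04) and 0.947 (0.871 to 1.03), held 1 in their counting intervals, and the joint value was -0.049 ± 0.19 (95% interval -0.46 to 0.36, adjusted p = 0.978).

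Cd27, which encodes the receptor for CD70, showed the widest disagreement between tissues. Spleen Tregs had 2268 reads (288 CPM) when WT and 1075 (186 CPM) when Csnk2b-deficient, a ratio of 0.646 (0.601 to 0.695). Lymph node Tregs had 3141 reads (768 CPM) when WT and 4849 (1063 CPM) when Csnk2b-deficient, a ratio of 1.38 (1.32 to 1.45). Csnk2b-deficient Tregs were thus the lower library in the spleen and the higher one in the lymph node, by log2 ratios of -0.63 and 0.47, both beyond counting error. Of all genes tested, 10.2% had a larger absolute ratio for spleen and 54.3% for lymph node. The joint log2 fold change was -0.075 ± 0.24 (95% interval -0.61 to 0.46, edgeR adjusted p = 0.974) and was 0.24 without the tissue term. The span of Cd27 lies inside that of Vamp1 (mm9, 125165569 to 125194561), and 14.4% to 21.0% of Cd27 exon reads were uniquely placed. Reads across exon-exon junctions gave log2 ratios of -0.60 and 0.57, and the other exon reads -0.64 and 0.45. Uniquely placed Cd27 reads were fewer than its junction reads in every library, with 471 against 499 for WT spleen. Most of the other exon reads were thus not uniquely placed, and they are no separate check of the junction reads. Whether the ratio differs between tissues was not tested, since the fit with that term leaves no residual degrees of freedom.

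Of the receptors with a death domain, Tnfrsf1a, the gene of the ubiquitous TNF receptor TNFR1, had the fewest reads. Spleen Tregs had 245 reads (31.1 CPM) when WT and 118 (20.4 CPM) when Csnk2b-deficient, a ratio of 0.657 (0.523 to 0.821). In the lymph node the libraries were alike, with 33 and 37 reads (8.07 and 8.11 CPM), a ratio of 1.01 whose interval of 0.612 to 1.66 also holds the spleen value. The joint log2 fold change was -0.32 ± 0.50 (95% interval -1.42 to 0.78, edgeR adjusted p = 0.940), the largest in size and the least precise of the 8. Tnfrsf25, which encodes DR3, the receptor of TL1A, had 112 and 115 CPM for spleen and 68.7 and 57.9 CPM for lymph node, WT first. Its ratios of 1.03 (0.929 to 1.14) and 0.843 (0.710 to 1.00) were within counting error, with a joint value of -0.099 ± 0.25 (95% interval -0.65 to 0.45, adjusted p = 0.965). Fas, the death receptor that restrains lymphocyte numbers, had 355 reads (45.0 CPM) in the WT spleen library and 263 (45.5 CPM) in the Csnk2b-deficient one, and 1006 (246 CPM) and 1051 (230 CPM) for lymph node. The genotypes were within counting error of each other in both tissues, and the log2 fold change was -0.041 ± 0.22 (95% interval -0.53 to 0.45, adjusted p = 0.988). Its spleen junction reads went from 82 in WT to 38 in Csnk2b-deficient Tregs, a log2 ratio of -0.64, while its other exon reads had 0.17.

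**Figure D2:**
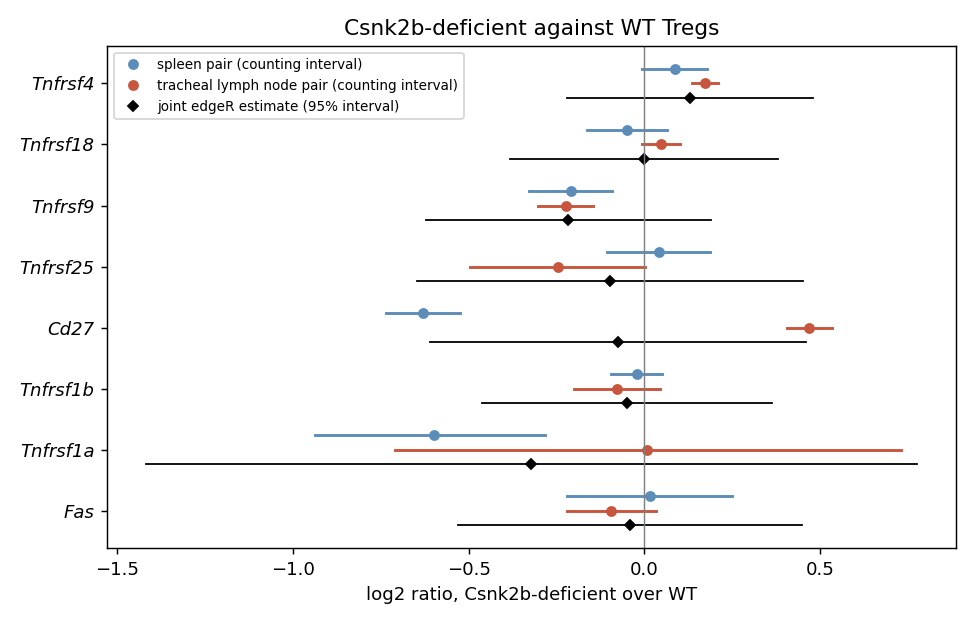
Log2 ratio of Csnk2b-deficient to WT Tregs for each receptor gene; blue and red points are the spleen and lymph node pairs with 95% counting intervals, and black diamonds are the joint edgeR estimates with 95% intervals. All 8 black intervals hold 0, and Cd27 has its pairs on opposite sides, at -0.63 and 0.47.

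The genes whose log2 CPM over the 4 libraries lay nearest to that of Tnfrsf1a, the receptor of largest absolute joint change, were Galnt10, Vav2, Sbk1, Kat2a and Adprh, out of 7164 candidates with at least 20 CPM on average. Their distances on the centred log2(CPM + 1) scale were 0.13 to 0.22. Tnfrsf1a itself averaged 16.9 CPM, below the limit set for the candidates, and had 33 and 37 reads in the lymph node libraries. Its own pattern is thus imprecise, and with 4 libraries such likeness is a description of these samples.

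The second labelled contrast, tracheal lymph node against spleen, separated every receptor gene. Tnfrsf4, Tnfrsf18, Fas, Cd27 and Tnfrsf9 were higher in lymph node Tregs and Tnfrsf1a, Tnfrsf25 and Tnfrsf1b lower, so edgeR called 8 of 8 while 45.4% of all genes tested were called, 23.3% higher and 22.2% lower. DESeq2 called 7 of 8, against 41.4% of all genes (21.7% higher and 19.7% lower), and limma-voom 8 of 8, against 50.5% (26.8% higher and 23.7% lower). Both genotypes gave the same direction for each of the 8, and the libraries of the tissues did not overlap for 8 of 8, as for 76.6% of all genes tested. Over all genes tested, the direction was the same in both genotypes for 82.8%. The protocols give 1 set of RNA and library kits (Trizol and TruSeq) for samples 1 and 2 and another (RNeasy micro, SMARTer and Nextera XT) for samples 3 and 4. If these numbers follow the order of listing, tissue and kit cannot be told apart.

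Tnfrsf4 was 9.80 times higher in lymph node than in spleen Tregs of WT mice (9.36 to 10.3, counting error only) and 10.4 times (9.90 to 10.95) in Csnk2b-deficient mice, with a log2 fold change of 3.34 ± 0.16 (SE, n = 2 per tissue, edgeR adjusted p = 1.23e-06). By the p of the tissue term it ranked 7 among the genes tested. Its neighbour Tnfrsf18 was higher by 2.70 ± 0.17 on the log2 scale (adjusted p = 3.05e-06), with ratios of 6.28 (5.93 to 6.65) in WT and 6.72 (6.30 to 7.17) in Csnk2b-deficient Tregs. Fas was higher by 2.39 ± 0.22 (adjusted p = 1.50e-05) and Tnfrsf9 by 1.79 ± 0.18 (adjusted p = 2.60e-05). The tissue change of Tnfrsf4, Tnfrsf18, Fas and Tnfrsf9 was nearly the same in both genotypes, with 3.47 times in WT and 3.44 times in Csnk2b-deficient Tregs for Tnfrsf9. Cd27 was higher by 1.96 ± 0.24 (adjusted p = 0.000107), but by 2.67 times (2.53 to 2.82) in WT and 5.72 times (5.35 to 6.11) in Csnk2b-deficient Tregs. On uniquely placed reads the log2 tissue ratios of Cd27 were 0.91 and 2.09, in place of 1.42 and 2.51. Its junction reads, which were more than the uniquely placed reads in every library, gave a close 0.88 and 2.06, so these are not separate checks.

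Both TNF receptors and DR3 had the other direction. Tnfrsf1b was lower in the lymph node by 0.82 ± 0.19 on the log2 scale with a fold change of 0.567 (edgeR adjusted p = 0.00426), and its pair ratios were 0.578 in WT and 0.556 in Csnk2b-deficient Tregs. Tnfrsf25 had a fold change of 0.555 (log2 fold change -0.85 ± 0.25, adjusted p = 0.0169), with 0.613 and 0.502 in the pairs. Tnfrsf1a had a fold change of 0.322 (log2 fold change -1.64 ± 0.50, adjusted p = 0.0215), and the DESeq2 Wald test did not call it (adjusted p = 0.0513). The neighbours Tnfrsf4 and Tnfrsf18 shared their direction, while Cd27 and Tnfrsf1a on chromosome 6 had opposite ones.

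**Figure D3:**
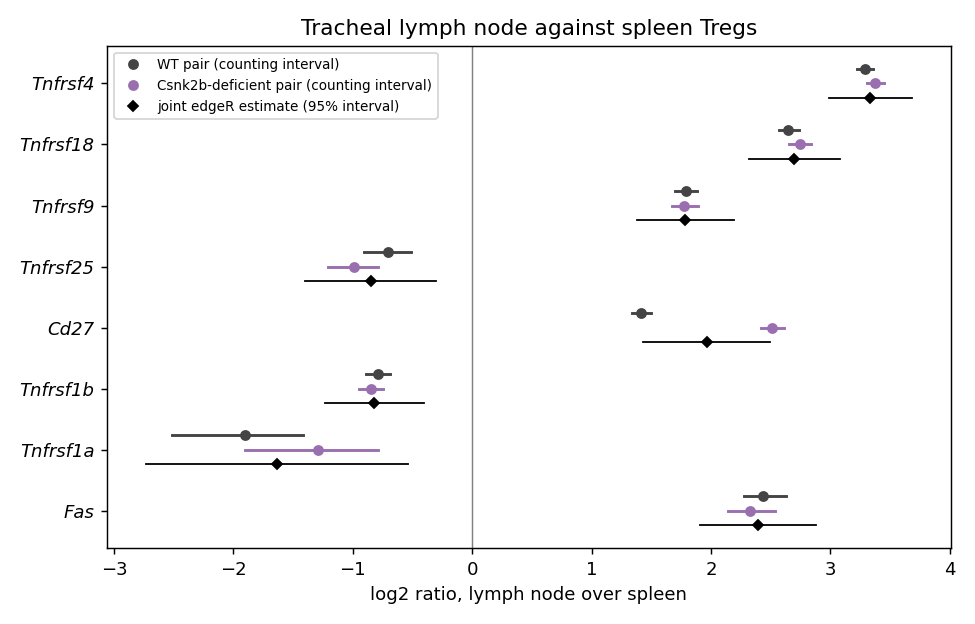
Log2 ratio of tracheal lymph node to spleen Tregs for each receptor gene; grey and purple points are the WT and Csnk2b-deficient pairs with 95% counting intervals, and black diamonds are the joint edgeR estimates with 95% intervals. Above 0 lie 5 receptors and below it 3, and the pairs of Cd27 lie furthest apart, at 1.42 and 2.51.

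Exon length moved with the tissue contrast over the whole table. With the genes tested split into 3 equal classes of exon length, the shortest class (36 to 2723 bases) had a median tissue log2 fold change of 0.66, the middle class (2724 to 4818 bases) -0.22 and the longest class -0.51. All receptors but Tnfrsf1b, which has 3818 bases, belonged to the shortest class, with Tnfrsf4 at 1365 bases. Within the same class, 1.97% of genes had a higher tissue change than Tnfrsf4, 5.64% than Tnfrsf18, 9.61% than Fas, 19.5% than Cd27 and 24.4% than Tnfrsf9. In the other direction, 15.7% of that class had a lower value than Tnfrsf1a and 25.5% than Tnfrsf25, and 34% of the middle class had a lower value than Tnfrsf1b. The part of length, or of the kits, in the receptor differences was not tested.

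The kind of read behind most of the receptors also differed between the tissues. Over all genes tested, reads across exon-exon junctions made up a median of 15.9% and 16.1% of exon reads per gene for spleen, and 10.9% and 11.4% for lymph node. For Tnfrsf1b this share was 10.9% and 11.9% for spleen and 2.21% and 2.62% for lymph node. Its junction reads alone gave log2 tissue ratios of -3.02 in WT and -2.96 in Csnk2b-deficient Tregs, and its other exon reads -0.65 and -0.70. The direction was thus shared, but the size depended strongly on the kind of read, with a far larger fall on junction reads. Of 3257 genes with at least 200 exon reads in every library, 4.27% had a junction share reduced at least as much as that of Tnfrsf1b. For Tnfrsf4 the share was 28.5% in both spleen libraries and 25.8% in both lymph node libraries, and its junction reads gave tissue ratios of 3.14 and 3.23, close to those of its other exon reads at 3.34 and 3.43. Tnfrsf9, Tnfrsf18, Tnfrsf1a and Cd27 also had smaller junction shares in both lymph node libraries. The share of Tnfrsf25 overlapped between the tissues. That of Fas was larger in the lymph node, with 23.1% and 14.4% for spleen and 27.0% and 26.2% for lymph node, WT first.

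Reads outside exons, which can come from unspliced RNA, were 21.1% to 23.8% of gene reads in every library as a whole. For Fas they were 56.4% and 53.7% of gene reads for spleen, but 3.27% (WT) and 12.6% (Csnk2b-deficient) for lymph node. On the CPM scale the Fas reads outside exons were 58.3 and 52.8 for spleen and 8.31 and 33.1 for lymph node, so they were lower in the tissue where its exon reads were higher. Tnfrsf9, Tnfrsf25, Tnfrsf4 and Tnfrsf18 also had smaller shares outside exons in both lymph node libraries, with 23.7% to 24.1% against 5.78% to 9.32% for Tnfrsf9. On the CPM scale, reads outside exons were also lower in the lymph node for Tnfrsf25, and overlapped between the tissues for Tnfrsf4 and Tnfrsf9. Those of Tnfrsf18 were higher there, with 7.86 and 9.34 for spleen and 16.1 and 29.4 for lymph node, WT first. The shares of Tnfrsf1a and Tnfrsf1b overlapped between the tissues. The Cd27 share of 19.9% and 20% for spleen and 1.97% and 2.38% for lymph node includes positions shared with Vamp1, whose exon reads were 1003 and 613 for spleen and 58 and 90 for lymph node. Tnfrsf18 lies inside the span of Gm16008, and 17.6% to 23.2% of its exon reads were uniquely placed. Gm16008 itself had 59 to 94 exon reads, compared with 1097 to 5815 for Tnfrsf18. On uniquely placed reads the tissue log2 ratios of Tnfrsf18 were 2.40 and 2.37. Its junction reads, again more than the uniquely placed reads in every library, gave 2.29 and 2.34, so these are not separate checks either. For the other 6 receptors at least 99.97% of exon reads were uniquely placed.

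**Figure D4:**
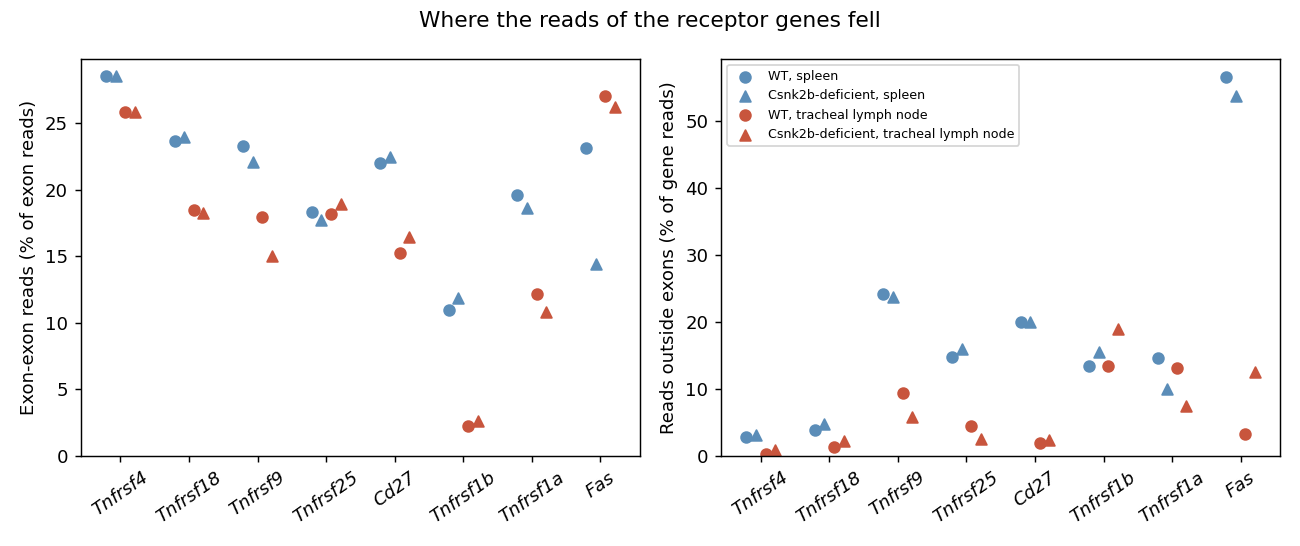
Share of exon reads that cross an exon-exon junction (left, %) and share of gene reads that lie outside exons (right, %) for each receptor gene in each library; circles are WT, triangles Csnk2b-deficient, blue spleen and red lymph node. Tnfrsf1b has 2.21% and 2.62% junction reads in the lymph node libraries, and Fas has 56.4% and 53.7% of its reads outside exons in the spleen libraries.

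The ligands of the 8 receptors were sparse in these sorted Tregs, apart from the lymphotoxin and TNF genes. Tnfsf4 (OX40 ligand) had 3, 3, 0 and 2 reads in WT spleen, Csnk2b-deficient spleen, WT lymph node and Csnk2b-deficient lymph node Tregs, Tnfsf18 (GITR ligand) had 2, 0, 0 and 0, and Cd70 had 1, 1, 0 and 0. A count of 0 allows up to 0.38 to 0.73 CPM, depending on the library. Tnf had 46.2, 48.3, 65.0 and 43.8 CPM in the same order and Lta, the lymphotoxin alpha gene, 64.9, 76.5, 170 and 323 CPM. Lta was higher in Csnk2b-deficient Tregs of both tissues, by a log2 fold change of 0.59 ± 0.24 that did not pass (adjusted p = 0.890, unadjusted p = 0.0338). Fasl had 5.33, 5.54, 12.5 and 27.2 CPM, Tnfsf9 had 2.28, 3.81, 12.2 and 12.9 CPM, and Tnfsf15, the TL1A gene, had 9, 33, 7 and 15 reads. Their genotype changes did not pass the test (adjusted p = 0.893 to 0.952).

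Of 17 ligand genes listed, 12 were tested and edgeR called 0 by genotype, with 3 at an unadjusted p below 0.05 and a median log2 fold change of 0.49. Over all genes tested, edgeR called 0.144% by genotype, 542 of 11113 were at an unadjusted p below 0.05, and the median was 0.0087. The 12 tested ligands passed a filter on low reads that is grouped by genotype, and they do not stand for the whole list. Their median also rests on genes of few reads, such as Tnfsf15. The largest evidence was for Tnfsf8, the CD30 ligand gene, with 63.7 and 174 CPM for spleen and 149.6 and 258 CPM for lymph node, WT first (log2 fold change 1.12 ± 0.24, adjusted p = 0.215, range over the alternatives 0.00121 to 1.00). DESeq2 and limma-voom each called 1 ligand, which was Tnfsf8. Tnfsf14, which encodes LIGHT, had 1.28 ± 0.55 (adjusted p = 0.890), and Ltb, the lymphotoxin beta gene, -0.27 ± 0.22 (adjusted p = 0.895). By tissue, edgeR called 4 of the 12 ligands higher and 1 lower in the lymph node, where 23.3% of all genes tested were called higher and 22.2% lower. The lower one was Ltb, with 4280 and 2652 reads for spleen and 44 and 39 for lymph node (log2 fold change -5.70 ± 0.23, adjusted p = 5.28e-07).

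Of 20 other receptors of the superfamily listed, 19 were present and 9 had enough reads to be tested. Over all genes tested, edgeR called 0.144% by genotype, and 542 of 11113 were at an unadjusted p below 0.05. Of the 9 receptors it called 0, with 1 at an unadjusted p below 0.05. That one was Tnfrsf26, with 40.6 and 52.9 CPM for spleen and 81.1 and 222 CPM for lymph node, WT first (log2 fold change 0.93 ± 0.29, adjusted p = 0.678). The median log2 fold change of the 9 was 0.74 by edgeR, 0.79 by DESeq2 and 0.41 by limma-voom, compared with 0.0087 over all genes tested by edgeR. Tnfrsf8, which encodes CD30, had 27.4, 27.8, 13.7 and 30.3 CPM in the order WT spleen, Csnk2b-deficient spleen, WT lymph node and Csnk2b-deficient lymph node (0.56 ± 0.43, adjusted p = 0.893). Tnfrsf13b, the gene of TACI, had -0.32 ± 0.27 and Tnfrsf14, the gene of HVEM, 0.35 ± 0.44. The 9 tested genes passed a filter on low reads that is grouped by genotype, and they do not stand for the whole list. Their median also rests on genes of few reads, such as Cd40 with 1, 11, 3 and 27 and Tnfrsf12a with 23, 17, 0 and 12 in the same library order. Ltbr and Edar, whose products act mainly outside T cells, had at most 2 reads in any library.

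Downstream of the receptors, 27 adaptor and complex genes were listed and all were tested. EdgeR called 0 by genotype, with 0 at an unadjusted p below 0.05 and a median log2 fold change of 0.19. Birc2, which encodes the ubiquitin ligase cIAP1, had 0.44 ± 0.21 and Casp8, the initiator caspase of death receptors, 0.36 ± 0.22 (both adjusted p = 0.890). Sharpin, a subunit of the linear ubiquitin chain assembly complex, had 0.68 ± 0.36 and Traf4 -0.69 ± 0.47. Of 12 NF-κB factors and feedback genes, 0 were called by genotype, with 1 at an unadjusted p below 0.05 and a median of -0.080. By comparison, edgeR called 0.144% of the 11113 genes tested, and 542 were at an unadjusted p below 0.05, with a median of 0.0087. Nfkbid had 91.4 and 80.3 CPM for spleen and 46.7 and 16.9 CPM for lymph node, WT first (-0.78 ± 0.35, adjusted p = 0.890). Nfkbie had -0.64 ± 0.34, Tnip1 -0.28 ± 0.23 and Nfkbia, the IκBα gene, -0.23 ± 0.21. DESeq2 and limma-voom called 0 genes of the other receptor, adaptor and NF-κB lists by genotype.

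By tissue, more genes of these lists were called lower than higher. Of the 12 NF-κB genes edgeR called 0 higher and 8 lower in the lymph node (median -1.30), and of the 27 adaptors 5 higher and 9 lower (median -0.56), where 23.3% of all genes tested were called higher and 22.2% lower. Nfkbid was lower by 1.58 ± 0.35 and a fold change of 0.333, and Tnip1 had -1.02 ± 0.23. Casp8 was higher by 1.03 ± 0.22 and Birc2 by 0.81 ± 0.21, while Sharpin had -2.42 ± 0.36. Nfkb2 and Bcl3, chosen after their values were seen, had -3.35 ± 0.29 and -3.85 ± 0.44. The same doubt on kit and exon length holds for these values.

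**Figure D5:**
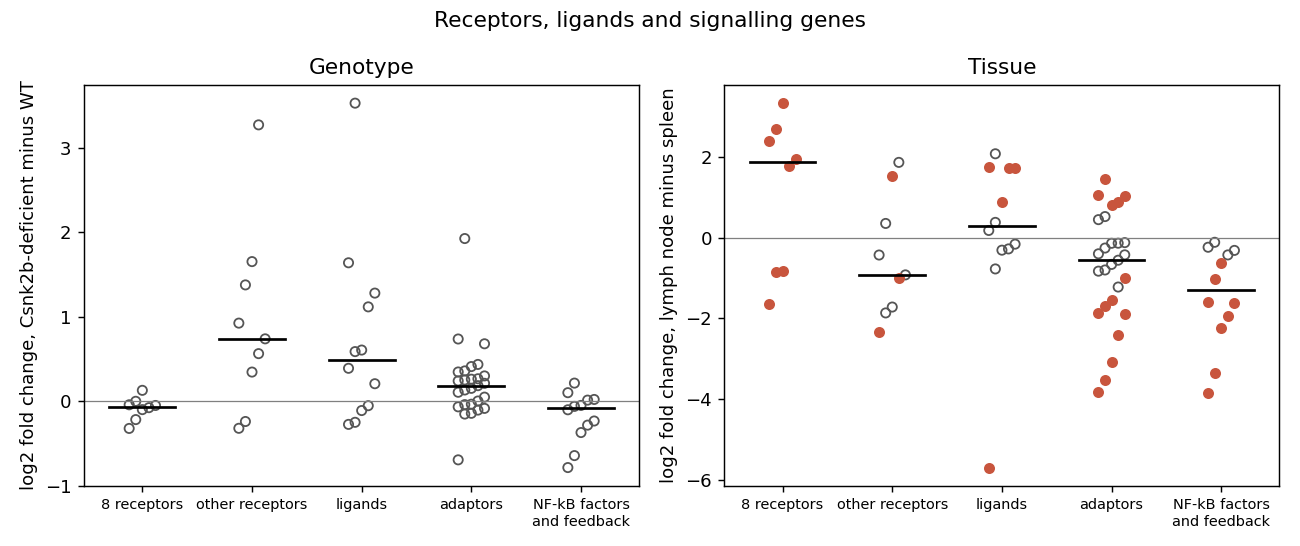
Log2 fold change by genotype (left) and by tissue (right) for the 8 receptors, the other receptors tested, ligands, adaptors, and NF-κB factors and feedback genes; each circle is a gene, filled red where edgeR called it, and the black line is the median. No circle is filled for genotype, and for tissue 8 of 8 receptors and 8 of 12 NF-κB genes are filled.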

How the data were processed

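Transcripts were counted in 4 Treg libraries. The deposited tables hold raw counts of reads per gene (exon, gene and exon-exon reads, unique and total), per the file headers. The submitters' processing notes name CASAVA 1.8.2 and mm9. Aligner, annotation and strand setting: not given in the sources used here. Total exon reads were used. Of 37583 features, 9551 without an exon length were left out.

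Genes were tested with edgeR 4.0.16 under R 4.3.3. Low genes were removed by filterByExpr on genotype and libraries scaled by TMM. The robust quasi-likelihood test was fitted to a design of tissue and genotype, and p-values were adjusted by Benjamini-Hochberg over 11113 genes and a threshold of 0.05. The replicate numbers pair the libraries by tissue, per the labels, so the tissue term is the block and 1 residual degree of freedom remains (prior degrees of freedom 10.1). SEs come from the model's curvature and the moderated dispersion. The test was tried first on simulated counts with less spread between libraries than these data, so that trial does not cover their spread. Ratios within a pair use a prior count of 2 and exact binomial intervals, which cover counting error only, as does the limit of 3 counts behind a 0. CPM values were scaled by TMM.

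The members, gene lists and tests were chosen with earlier results of these data known. The text names the 8 receptors, their ligands, Csnk2b, Foxp3, up to 4 genes per list of smallest unadjusted p with at least 5 CPM on average, and the 5 nearest patterns. Alternatives used DESeq2 1.42.0, limma 3.58.1 and other scalings, filters, reads and sets of libraries. One further marker list is not reported here.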

Additional observations from a re-analysis of the deposited data

Results flagged for a closer look

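On total exon reads, 5 receptors had genotype ratios of opposite direction in the 2 tissues, and none of these differences was tested, since 1 library per genotype and tissue leaves no residual degrees of freedom. Log2 ratios of Csnk2b-deficient to WT are given with the spleen first. Cd27 had -0.63 and 0.47, both beyond counting error. Tnfrsf1a had -0.60, beyond counting error, and 0.0077, from 33 and 37 reads. For Tnfrsf25 (0.041 and -0.25), Tnfrsf18 (-0.049 and 0.048) and Fas (0.015 and -0.094) the counting intervals of both ratios held 0 on the log2 scale. On uniquely placed reads, 17.6% to 23.2% of its exon reads, Tnfrsf18 had 0.049 and 0.021, the same direction in both. Over all genes tested 56.7% had the same direction in both tissues.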

How the results depend on the processing

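Of the 8 receptors, 0 were called by genotype in every alternative that kept all 4 libraries, with 0 at an unadjusted p below 0.05 in each. Over all genes tested, the share called was 0.144% by edgeR, 0.486% by DESeq2 and 0.576% by limma-voom. With no replicate block, 0 of all genes were called. A count of 0 among the 8 is thus near the share of all genes. None of the joint genotype changes passed the test, and several changed sign. That of Cd27, -0.075, became 0.24 with no replicate block (no tissue term). With a library of one tissue left out, the pair of the other remained. Without a spleen library Cd27 had 0.47 and Tnfrsf1a 0.0077 (from -0.32), and without a lymph node library Tnfrsf25 had 0.041 (from -0.099), Fas 0.015 (from -0.041) and Tnfrsf18 -0.049 (from 3.7e-06). On uniquely placed reads the spleen ratio of Tnfrsf18 turned from -0.049 to 0.049. The block moved no receptor across the threshold. By tissue, 5 receptors were higher and 3 lower in every alternative with a tissue test but the DESeq2 Wald test, which called 5 and 2 and lost Tnfrsf1a. Upper-quartile scaling moved the median tissue change of all genes by -0.15, and no receptor changed its tissue direction. On uniquely placed reads the Cd27 ratio in the lymph node was 0.57 in place of 0.47.

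Over all genes, 14 were called higher and 2 lower by genotype. The counts were 38 and 16 by DESeq2, 42 and 22 by limma-voom, and 79 and 32 when edgeR kept low genes. Size factors by the median of ratios gave 4 and 0 (415 at an unadjusted p below 0.05), uniquely placed reads 7 and 0 (420), and no replicate block 0 and 0 (29). The filter at 5 CPM and upper-quartile scaling each gave 1 lower. Leaving out 1 library, with no replicate block, gave 0 to 1 higher and 0 lower, with 44 to 803 genes at an unadjusted p below 0.05. The ratios of a remaining pair have no test.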
